A study of Mus musculus with 12 samples.

Results

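The genes described here carry the symbols of proteins of the cytosolic ribosome. They were taken as the probe sets annotated to a single symbol of the form Rpl or Rps with a digit. Rplp0, Rplp1, Rplp2 and Rpsa were included, and the S6 kinases and symbols containing -ps or -rs were left out. Of the 12393 genes that a single-symbol probe set measured, 48 met this rule. By symbol, 24 belong to the large subunit, 2 to its acidic stalk (Rplp0 and Rplp2) and 22 to the small subunit, with Rpsa counted among the last. RefSeq lists Rps4l, counted with the small subunit, as a transcribed pseudogene and the other members as protein-coding. Where a gene had several such probe sets, as 23 of the 48 did, the one with the highest mean log2 signal stood for it. Another 30 symbols of this form, with the retrotransposed copies Rpl37rt and Rps27rt among them, were found only on probe sets that carried other symbols as well, and those probe sets are described apart.

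The cells were mouse embryonic fibroblasts (MEFs), primary connective tissue cells of C57BL/6 embryos, given combinations of transcription factors (TFs) by lentivirus to see how these alter gene expression. All 12 cultures carried M2rtTA, the doxycycline-dependent activator that drives the inducible vectors, and all received doxycycline (Dox) for 7 days, with valproic acid and additional serum. TF group 1 also carried GATA4, TBX5 and MEF2C, TF group 2 added Mesp1 and SMARCD3 to these, TF group 3 added MYOCD and SRF to the factors of TF group 2, and the negative control had no virus beside M2rtTA. Each group had 3 biological replicates, each hybridised to one Affymetrix Mouse Genome 430A 2.0 array. RNA came from the whole culture rather than from cells sorted for the factors, so fewer cells of a type and less RNA per cell cannot be told apart.

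A ribosome contains one copy of nearly every ribosomal protein, and the messenger RNAs for these proteins are among the most abundant in growing cells. They share a terminal oligopyrimidine (TOP) start, a C followed by a run of pyrimidines, through which mTOR and the RNA-binding protein LARP1 control their translation. A few of the genes have paralogues with a narrower expression, such as Rpl3l in striated muscle and Rpl39l in male germ cells.

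The start of the transcript is the feature these genes are best known to share, and it is shown here for the members whose RefSeq start carried it and for 3 paralogues discussed below. Promoters were found for 42 of the 48 genes, without Rpl7, Rpl8, Rps14, Rps20, Rps29 and Rps4l. On the transcribed strand a C at the annotated start, followed by at least 4 bases each C or T, was present at 8 of these 42 genes (19.0%) and at 813 of the 27025 genes with a RefSeq promoter (3.01%). The 30-base windows begin 10 bases before the annotated start (GRCm38.p6), and capitals mark the C at the start and its pyrimidine run.
Rpl14, chr9:120571507-120571536, plus strand: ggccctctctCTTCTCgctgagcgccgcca
Rpl35, chr2:39005112-39005141, minus strand: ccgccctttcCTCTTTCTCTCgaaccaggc
Rpl38, chr11:114668570-114668599, plus strand: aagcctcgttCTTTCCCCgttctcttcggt
Rplp2, chr7:141447641-141447670, plus strand: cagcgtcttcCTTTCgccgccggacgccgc
Rps6, chr4:86857348-86857377, minus strand: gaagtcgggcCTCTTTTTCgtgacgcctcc
Rps10, chr17:27635225-27635254, minus strand: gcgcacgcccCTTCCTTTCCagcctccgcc
Rps18, chr17:33955646-33955675, minus strand: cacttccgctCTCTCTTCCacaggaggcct
Rps27, chr3:90213629-90213658, minus strand: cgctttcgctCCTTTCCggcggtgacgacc
Rpl39l, chr16:10170218-10170247, plus strand: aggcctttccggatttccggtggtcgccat
Rpl7l1, chr17:46782637-46782666, minus strand: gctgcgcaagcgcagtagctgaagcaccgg
Rps27l, chr9:66946076-66946105, plus strand: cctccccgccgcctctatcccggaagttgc
The other 34 matched genes, the last 3 sequences included, did not have these letters at the annotated start, which depends on where that start was placed.

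The deposited values were a linear signal per probe set, and log2 of this signal is used throughout, so that a log2 change is the mean of a TF group minus the mean of the negative control. The trimmed mean signal was 500.2 on every array, while the median signal lay between 143 and 150 on the TF arrays and between 131 and 140 on the control arrays. The poly-A spikes, bacterial transcripts added to the RNA before amplification, averaged 8.03 to 8.28 on the TF arrays and 6.99 to 7.79 on the control arrays on the log2 scale. All 12 fibroblast markers had a mean signal over 32 in every group, and their summed signal was 76334 to 81239 in TF group 1, 60098 to 63005 in TF group 2, 57248 to 59032 in TF group 3 and 68903 to 72548 in the negative control. The summed signal of 6 epithelial markers was 831 to 1086 on the TF arrays and 624 to 741 on the control arrays, that of 7 macrophage markers was 391 to 567 on the TF arrays and 498 to 574 on the control arrays, and that of 6 endothelial markers was 119 to 204 on the TF arrays and 125 to 215 on the control arrays. Of the 6 endothelial markers, 3, 3 and 4 had a mean signal under 32 in TF groups 1, 2 and 3, and 4 in the negative control. Pecam1 and Tie1 were under it in all 4 groups. Of the 7 macrophage markers, 2, 2 and 1 were under it in TF groups 1, 2 and 3, and 1 in the negative control. Ptprc, the leukocyte antigen CD45, was under it in TF groups 1 and 2 only. The part of these differences in the results below was not tested.

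The 48 genes moved little between groups. Their median signal on an array was 13.32, 13.28 and 13.28 in TF group 1, 13.13, 13.13 and 13.22 in TF group 2, 13.09, 13.12 and 13.17 in TF group 3, and 13.22, 13.28 and 13.31 in the negative control, on the log2 scale. The arrays of TF group 3 all lay below those of the negative control, the highest array of TF group 2 was level with the lowest control array, and those of TF group 1 overlapped the control arrays. The median log2 change of the 48 genes was 0.06 in TF group 1, -0.07 in TF group 2 and -0.08 in TF group 3, beside 0.07, 0.06 and 0.05 over all genes tested, and the sign in TF group 1 turned with the other scalings described below. Between replicates the genes had a median SD of 0.066, compared with 0.171 over all genes, and the 36 with a mean log2 signal of 12 or more had 0.060, beside 0.058 for 363 other genes at that level.

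In TF group 1, 9 of the 48 genes were called higher and 5 lower at an adjusted p under 0.05 by limma, while 26.1% of all genes were called higher and 18.6% lower. In TF group 2, 2 were called higher and 11 lower, against 25.7% and 19.9% of all genes, and in TF group 3, 2 were higher and 15 lower, against 25.5% and 19.7%. A fold change over 1.5 was much rarer. No member rose by that much in any TF group, where 15.2%, 15.5% and 14.9% of all genes did in TF groups 1, 2 and 3, and 3, 3 and 4 members fell by that much, where 9.01%, 10.2% and 9.92% of all genes did. Over the 4 groups together, 18 of the 48 genes passed the moderated F test, and 51.2% of all genes did. In the large subunit, 2, 1 and 2 of 24 genes were called higher in TF groups 1, 2 and 3, while 4, 7 and 10 were called lower. In the small subunit, 6, 1 and 0 of 22 were called higher and 1, 4 and 5 lower.

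The count of 9 genes called higher in TF group 1 fell to 2 without replicate 1 of TF group 1, 5 without its replicate 3, and to 4 or 5 without replicates 1 or 2 of the negative control. The 2 called higher in TF group 2 became 1 without its replicate 3 or without replicate 1 of the negative control, and those in TF group 3 became 1 without its replicate 2 or without replicate 2 of the negative control. The split between higher and lower calls also depended on how the arrays were scaled. With each array centred on its median signal, 0 members were called higher and 13 lower in TF group 1, 1 higher and 20 lower in TF group 2, and 1 higher and 22 lower in TF group 3. With quantile normalization the counts were 4 higher and 10 lower, 3 higher and 9 lower, and 3 higher and 12 lower. Scaled to the poly-A spikes, no member was called higher, and 47, 44 and 45 of 48 were called lower, with medians of -0.83, -0.81 and -0.88. The median of all genes under that scaling was -0.83, -0.68 and -0.74, and the members stood at -0.00, -0.13 and -0.14 from it. Array centring and the poly-A scaling shift all genes of an array by the same amount. This distance therefore cannot change under them and is the same as without rescaling. After quantile normalization this distance was -0.03, -0.05 and -0.04. Fold changes in the following paragraphs refer to the deposited scale.

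**Figure D1:**
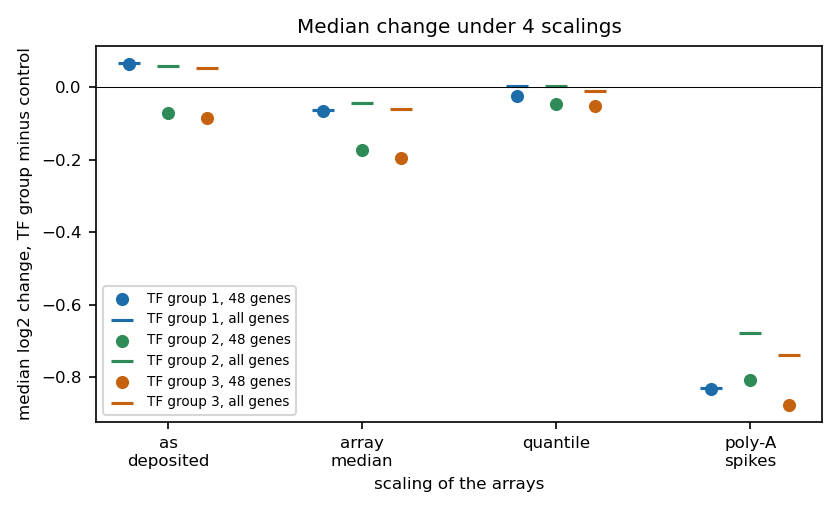
Median log2 change of each TF group minus the negative control (vertical axis) for the 48 ribosomal protein genes (circles) and all 12393 genes (dashes) under 4 scalings of the arrays (horizontal axis). The poly-A scaling moved both medians down, to between -0.68 and -0.88, and the distance between circle and dash was widest in TF group 2 and TF group 3.

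The 36 genes with a mean log2 signal of 12 or more stayed within a narrow band. Their log2 changes ran over the range of -0.16 to 0.31 in TF group 1, -0.28 to 0.18 in TF group 2 and -0.30 to 0.11 in TF group 3, with medians of 0.11, -0.03 and -0.08. In TF group 1, 8 of these 36 were called higher and none lower, beside 36.1% higher and 27.0% lower among 363 other genes with a mean of 12 or more, although none of the 36 was called higher and 5 were called lower with the arrays centred on their medians. Of the 36, 1 was called higher and 6 lower (16.7%) in TF group 2, beside 31.1% and 29.8% of those other genes. In TF group 3, none was called higher and 10 were called lower (27.8%), beside 29.5% and 28.7%, so that the share called lower was near that of other bright genes. The highest log2 signal on any array was 13.9 to 14.2, near the level of these genes, and the 363 other genes included 31 called higher and 9 called lower with a fold change over 1.5 in TF group 1. In TF group 2 those counts were 27 and 13, and in TF group 3 they were 26 and 11. The plot of all members shows this narrow band and the few genes outside it.

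**Figure D2:**
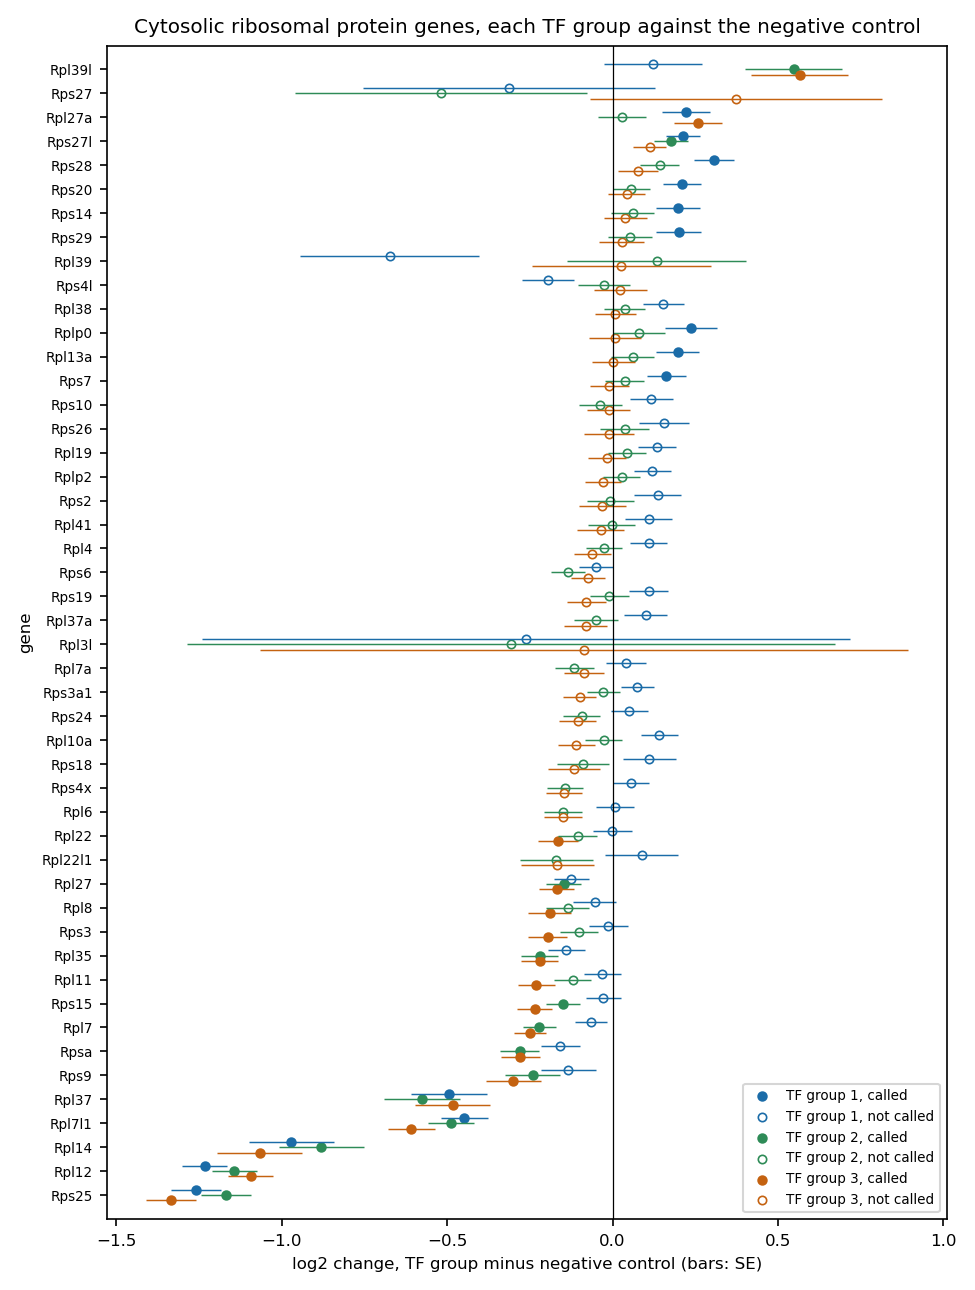
Log2 change of each TF group minus the negative control (horizontal axis, bars are the SE of the fit) for all 48 ribosomal protein genes (vertical axis, in the order of their change in TF group 3), with filled circles for an adjusted p under 0.05 in limma. Rps25, Rpl12 and Rpl14 lie near or below -0.88 in every TF group, most other genes lie between -0.30 and 0.31, and the bars of Rpl3l, Rps27 and Rpl39 are wide.

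Of the members, 5 were called lower in every TF group: Rps25 of the small subunit and Rpl12, Rpl14, Rpl37 and Rpl7l1 of the large subunit or its paralogues. Over all genes, 18.6%, 19.9% and 19.7% were called lower in TF groups 1, 2 and 3. The share of all genes called lower in every TF group was not counted, so the number of members is not read as a trait of theirs. Rps25, a protein near the head of the small subunit that is known for its part in initiation from viral internal entry sites, had log2 signals of 9.08, 9.18 and 9.25 in TF group 1, 9.28, 9.20 and 9.30 in TF group 2, 9.03, 9.08 and 9.16 in TF group 3, and 10.32, 10.56 and 10.40 in the negative control. All TF arrays lay below the lowest control array. The change was -1.26, -1.17 and -1.34 in TF groups 1, 2 and 3, with an SE of 0.08 and adjusted p-values of 1.18e-06, 1.51e-06 and 7.28e-07 by limma. Rpl12, which lies at the base of the stalk where elongation factors bind, had 7.38, 7.56 and 7.62 in TF group 1, 7.59, 7.64 and 7.60 in TF group 2, 7.70, 7.59 and 7.69 in TF group 3, and 8.75, 8.80 and 8.71 in the negative control. Its log2 changes were -1.23, -1.14 and -1.09 (SE 0.07, adjusted p = 6.45e-07, 7.88e-07 and 1.14e-06). Neither gene's TF arrays overlapped the control arrays.

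Rpl14, a large subunit protein, had log2 signals of 8.47, 8.29 and 8.05 in TF group 1, 8.21, 8.32 and 8.56 in TF group 2, 8.06, 8.25 and 8.21 in TF group 3, and 9.09, 9.35 and 9.29 in the negative control. The changes were -0.97, -0.88 and -1.07 (SE 0.13, adjusted p = 0.00018, 0.00032 and 9.66e-05). Its start is one of the 8 printed above with a pyrimidine run. Rpl37, a zinc-binding protein of the large subunit, had 10.05, 10.10 and 9.96 in TF group 1, 9.91, 9.87 and 10.09 in TF group 2, 9.94, 9.88 and 10.32 in TF group 3, and 10.56, 10.45 and 10.58 in the negative control. Replicate 3 of TF group 3 came closest to the control arrays without reaching them, and the changes of -0.50, -0.58 and -0.48 (SE 0.11, adjusted p = 0.00576, 0.00229 and 0.00646) were each under 1.5-fold. Rpl7l1, a paralogue of Rpl7, had log2 changes of -0.45, -0.49 and -0.61 (SE 0.07, adjusted p = 0.000575, 0.00031 and 7.69e-05), and its arrays lay between 9.85 and 10.20 in the TF groups and between 10.43 and 10.55 in the negative control. Only in TF group 3 did its fall pass 1.5-fold, at 1.52-fold, while its difference between TF group 3 and TF group 1 was -0.16 (adjusted p = 0.162). The calls of these 5 genes held in all 3 comparisons when any one array was left out.

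**Figure D3:**
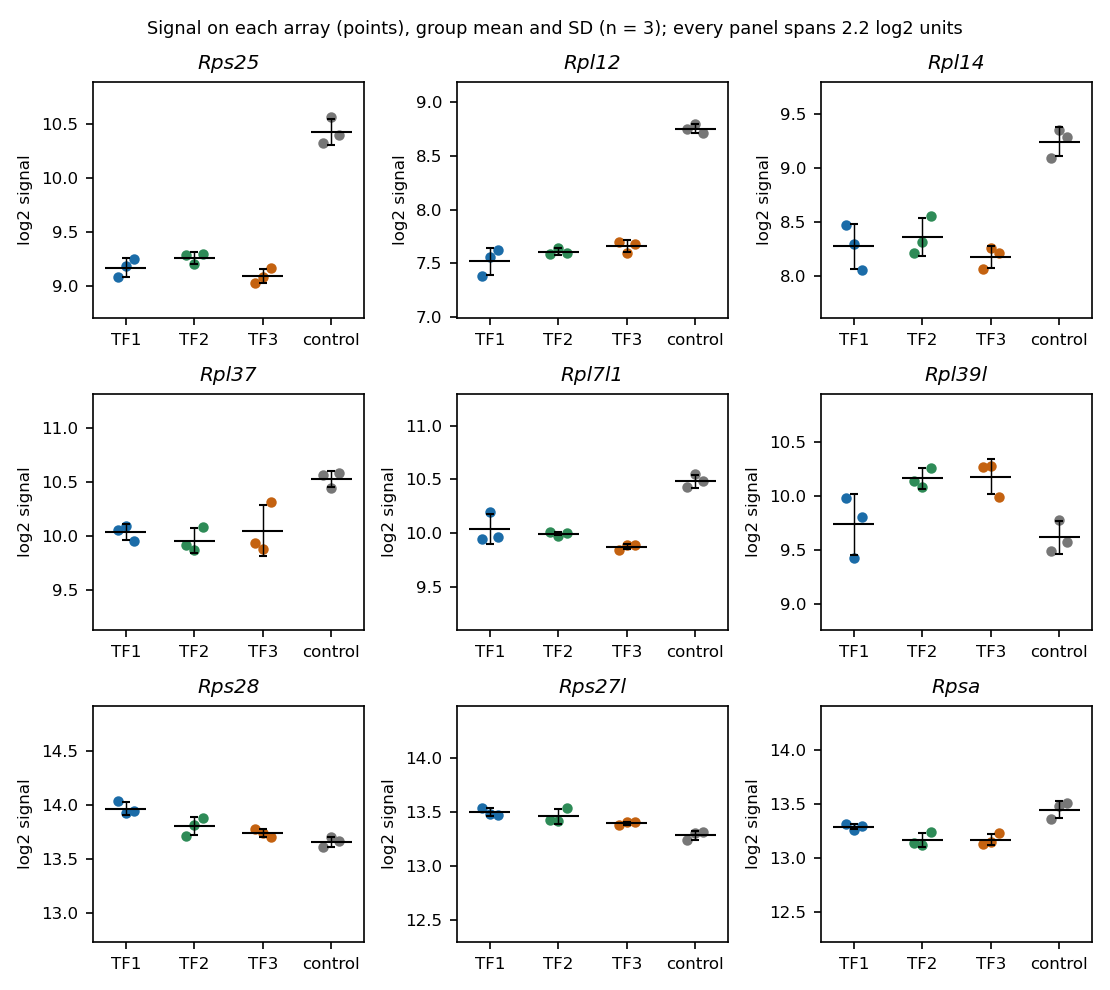
Log2 signal (vertical axis, each panel spanning 2.2 log2 units) on each array (points) of TF groups 1, 2 and 3 and the negative control (horizontal axis), with group mean and SD, for 9 members. The TF arrays of Rps25, Rpl12, Rpl14, Rpl37 and Rpl7l1 sit below the control arrays, those of Rpl39l sit above them in TF groups 2 and 3, and Rps28, Rps27l and Rpsa vary far less.

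The lowering of Rps25, Rpl12, Rpl14 and Rpl37 was not seen to the same extent on the other probe sets that name these genes. These carried several symbols, so they were assigned to no gene. Of the probe sets annotated to Rpl12 and other symbols, the 2 measured had log2 changes of -0.06 and 0.15 in TF group 1, -0.16 and 0.05 with TF group 2, then -0.21 and -0.05 with TF group 3, none of which passed. The one annotated to Rps25 and other symbols had 0.01, -0.11 and -0.15, and did not pass. For Rpl14 there were 5, which ran from -0.26 to -0.02 in TF group 1, -0.33 to -0.07 in TF group 2 and -0.38 to -0.21 in TF group 3. At an adjusted p under 0.05, 3 of these 5 passed in TF groups 1 and 2 and all 5 in TF group 3, so that Rpl14 was lower on these too, by less than on its own probe set. For Rpl37, the 3 that it shares with its retrotransposed copy Rpl37rt ran from -0.37 to 0.09 in TF group 1, -0.19 to -0.05 in TF group 2 and -0.61 to -0.06 in TF group 3, of which 2 passed in TF group 3 and none in the others.

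Probe sets of one gene also differed among the single-symbol ones. The 100 single-symbol probe sets of the members were divided by mean log2 signal. Of the 28 with a mean under 10, 12, 9 and 10 were called lower in TF groups 1, 2 and 3 (42.9%, 32.1% and 35.7%), beside 14.4%, 15.4% and 14.8% of 19081 other probe sets at that level. Of the 65 with a mean of 12 or more, 1, 9 and 17 were called lower (1.54%, 13.8% and 26.2%), beside 23.4%, 29.1% and 27.0% of 578 others, and none of the 65 fell by more than 1.5-fold. This division was chosen after the values were seen, and several of these probe sets belong to one gene.

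Rps18, Rpl41, Rps24, Rps10 and Rps9 had the widest spread between their probe sets. For Rpl41, the smallest protein of the ribosome, the probe set used gave 0.11, 0.00 and -0.04 in TF groups 1, 2 and 3, none passing, while another gave -1.83, -1.57 and -1.07 and a further one -1.24, -1.61 and -0.86, all passing. Another, with a mean log2 signal of 12.4, gave -0.21, -0.32 and -0.26, also passing. For Rps24, a small subunit protein mutated in human Diamond-Blackfan anaemia, the probe set used gave 0.05, -0.09 and -0.11, and another gave -1.42, -1.48 and -1.17, which passed. A bright one, with a mean log2 signal of 13.21, gave -0.15, -0.23 and -0.30, and the last pair passed. Another, at 13.24, gave 0.04, -0.08 and -0.17, of which the last passed, and one at 12.74 gave 0.01, -0.09 and -0.17, none passing. Rps18, which lies in the head of the small subunit, had 0.11, -0.09 and -0.12 on the probe set used, and 2 others with high signal stayed between -0.10 and 0.11. On one dim probe set of Rps18 the change in TF group 1 was -2.73. The probe set used for Rps10, which contacts messenger RNA near the entry channel, gave 0.12, -0.04 and -0.01, and one with a mean log2 signal of 5.37 gave -1.48 in TF group 1. Another of Rps10, with a mean of 10.95, gave -0.28, -0.22 and -0.63, of which only the last passed. Those of Rps10 with a mean of 12 or more did not pass. For Rps9, an early-assembling protein of the small subunit, the probe set used gave -0.13, -0.24 and -0.30, with adjusted p = 0.229, 0.038 and 0.0146. Another of Rps9, with a mean log2 signal of 6.85, gave -1.21, -0.84 and -0.89, all passing. A further one, with a mean of 7.82, gave 0.02, -0.50 and -0.63, of which only the last passed. On the probe set used, the calls of Rps9 were less firm. The one in TF group 3 was lost without replicate 3 of the negative control (-0.25). The one in TF group 2 was lost in 8 of the 12 omissions of a single array, over all of which the change was -0.31 to -0.19.

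**Figure D4:**
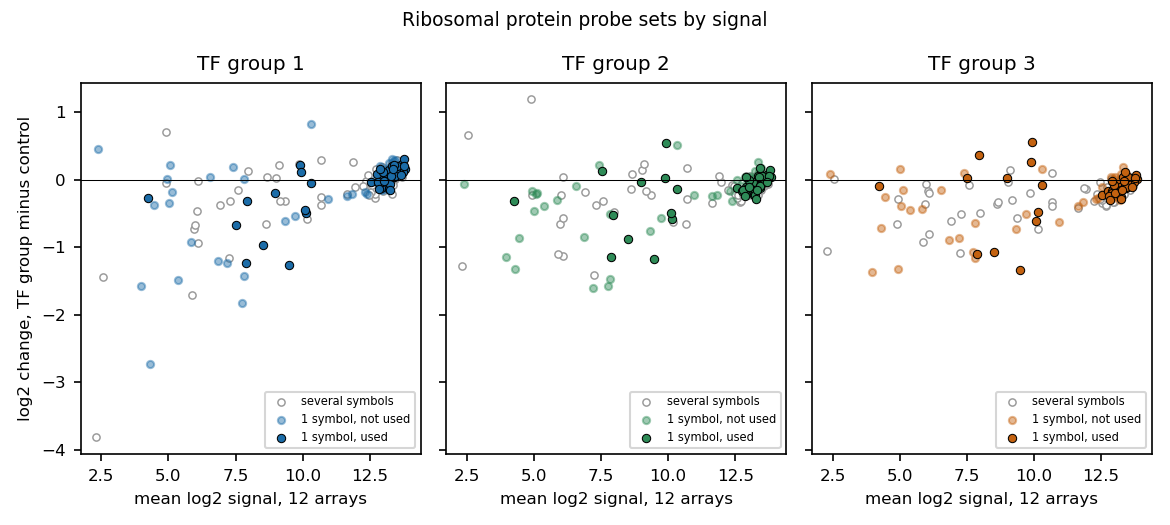
Log2 change of each TF group minus the negative control (vertical axis) against the mean log2 signal over the 12 arrays (horizontal axis) for probe sets that name a ribosomal protein gene. The probe set used for each of the 48 genes has a black outline, other single-symbol probe sets are pale and the 102 probe sets with several symbols are open. Probe sets with a mean of 12 or more lie between -0.38 and 0.31, and changes beyond -1 lie at lower signal.

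Among the members called higher in TF group 1, the 5 with the greatest change were Rps28, Rplp0, Rpl27a, Rps27l and Rps20. Rps28, a small subunit protein, had log2 signals of 14.04, 13.93 and 13.94 in TF group 1, against 13.61, 13.70 and 13.67 in the negative control, and these did not overlap. Its change was 0.31 (SE 0.06, adjusted p = 0.00217) in TF group 1, and 0.14 and 0.08 in TF groups 2 and 3, which did not pass. Rplp0, the stalk protein that anchors the acidic P proteins and serves as a common reference gene, had 13.98, 13.82 and 13.83 in TF group 1, against 13.49, 13.70 and 13.72 in the negative control. Its change of 0.24 (SE 0.08, adjusted p = 0.0346) was lost without replicate 1 of the negative control (0.16) or replicate 1 (0.19) or replicate 3 (0.26) of TF group 1. In TF groups 2 and 3 Rplp0 had 0.08 and 0.01, and its partner Rplp2 had 0.12, 0.03 and -0.03 in TF groups 1, 2 and 3, none passing.

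Rps20, which lies in the head of the small subunit, rose by 0.21 in TF group 1 (adjusted p = 0.0129), which was lost without replicate 1 of TF group 1 (0.18). Rpl27a had 0.22 in TF group 1 (adjusted p = 0.0325) and 0.26 in TF group 3 (adjusted p = 0.016), beside 0.03 in TF group 2. The call in TF group 1 was lost without replicate 2 (0.19) or 3 (0.22) of the negative control or without replicate 1 (0.15) or 2 (0.24) of TF group 1. The call in TF group 3 was lost without replicate 2 of the negative control (0.23) or of TF group 3 (0.22). With the mean of both probe sets of Rpl27a the change in TF group 3 was -0.06. The probe set annotated to Rpl27a and other symbols, with a mean log2 signal of 13.43, had 0.15, 0.03 and -0.05 in TF groups 1, 2 and 3, none passing. The other 4 genes called higher in TF group 1 were Rps29, Rps14, Rpl13a and Rps7, with changes of 0.16 to 0.20, and none of them kept its call in all 12 omissions. With arrays centred on their medians the changes in TF group 1 were 0.18 for Rps28, 0.11 for Rplp0, 0.09 for Rpl27a and 0.08 for Rps20, none of which passed, and with the poly-A scaling they were -0.59, -0.66, -0.68 and -0.69.

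The paralogues behaved differently from each other. Rpl39l, the paralogue known from male germ cells, had log2 signals of 9.99, 9.43 and 9.80 in TF group 1, 10.14, 10.08 and 10.27 in TF group 2, 10.27, 10.28 and 9.99 in TF group 3, and 9.49, 9.78 and 9.58 in the negative control. The arrays of TF groups 2 and 3 all lay above the control arrays, whereas those of TF group 1 overlapped them. The changes were 0.12 in TF group 1 (adjusted p = 0.55), 0.55 in TF group 2 (adjusted p = 0.0124) and 0.57 in TF group 3 (adjusted p = 0.0108), with an SE of 0.15. No other member had an increase as large that passed, and the calls in TF groups 2 and 3 held with any one array left out but not with the poly-A scaling (-0.19 and -0.23). The difference between TF group 3 and TF group 1 was 0.44 and did not pass (adjusted p = 0.0727). Its parent Rpl39 had -0.67, 0.13 and 0.03 with an SE of 0.27, none passing, and the probe set annotated to Rpl39 and another symbol had 0.30, 0.09 and 0.05.

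Rps27l, a paralogue of Rps27 that is known as a p53 target in human cells, had log2 signals of 13.54, 13.48 and 13.47 in TF group 1, 13.43, 13.42 and 13.54 in TF group 2, 13.38, 13.41 and 13.41 in TF group 3, and 13.24, 13.31 and 13.32 in the negative control. Every TF array lay above every control array. The changes were 0.21 (adjusted p = 0.00707), 0.18 (adjusted p = 0.0182) and 0.11 (adjusted p = 0.108), with an SE of 0.05. With array medians as the scale they were 0.08 and 0.07 in TF groups 1 and 2, which did not pass, and the call in TF group 2 was lost without replicate 1 of the negative control (0.15) or replicate 3 of TF group 2 (0.14). Rps27 itself, whose start is printed above, had 7.73, 8.97 and 7.47 in the negative control alone, and its changes of -0.31, -0.52 and 0.37 had an SE of 0.44.

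Rpl7, the parent of Rpl7l1, had log2 signals of 13.33, 13.31 and 13.28 in TF group 1, 13.11, 13.14 and 13.21 in TF group 2, 13.08, 13.13 and 13.16 in TF group 3, and 13.35, 13.42 and 13.35 in the negative control. On the probe set used, Rpl7 fell by 0.22 and 0.25 on the log2 scale in TF groups 2 and 3. These falls passed (SE 0.05, adjusted p = 0.00444 and 0.00228), and the change of Rpl7 in TF group 1 was -0.06. Its other single-symbol probe sets, with mean log2 signals of 13.15 and 13.12, fell less. The first gave -0.11 for TF groups 2 and 3 alike, the second -0.08 and -0.07, none passing. Rpl22l1, which is known to be regulated by its parent Rpl22, had 0.09, -0.17 and -0.17 and Rpl22 had 0.00, -0.11 and -0.16. Of these only Rpl22 in TF group 3 passed (adjusted p = 0.0487), a call that was lost in 11 of the 12 omissions of a single array, over all of which the change was -0.21 to -0.14. A second probe set of Rpl22 gave 0.83, 0.52 and 0.16, of which the first pair passed. Rps4x, a small subunit protein, had 0.05, -0.14 and -0.15, none passing. Rps4l, which RefSeq lists as a transcribed pseudogene, had -0.19, -0.03 and 0.02, none passing. Rpl3l, the paralogue of heart and skeletal muscle, had a mean log2 signal of 4.24 over the 12 arrays, with single arrays between 2.53 and 5.36 in the TF groups and between 3.70 and 5.25 in the negative control, and changes of -0.26, -0.31 and -0.09 with an SE of 0.98.

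Of the members with a known role beside the ribosome, Rpsa fell in TF groups 2 and 3 and Rpl11 in TF group 3. Rpsa, which also acts as a laminin receptor, had log2 signals of 13.31, 13.26 and 13.30 in TF group 1, 13.14, 13.12 and 13.24 in TF group 2, 13.13, 13.15 and 13.23 in TF group 3, and 13.36, 13.48 and 13.51 in the negative control. All TF arrays lay below the control arrays. The changes were -0.16 (adjusted p = 0.057), -0.28 (adjusted p = 0.0034) and -0.28 (adjusted p = 0.00368), with an SE of 0.06. Rpl11, which with Rpl5 and 5S rRNA binds the p53 regulator Mdm2, had -0.03, -0.12 and -0.23, and only the change in TF group 3 passed (SE 0.06, adjusted p = 0.00803). Rpl5 was not among the single-symbol genes. Rps6, the substrate of the S6 kinases, had -0.05, -0.13 and -0.07 with an SE of 0.05, Rps19, mutated in human Diamond-Blackfan anaemia, had 0.11, -0.01 and -0.08, and Rpl38, known for its part in translating Hox messenger RNAs in the mouse embryo, had 0.15, 0.04 and 0.01, none passing.

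Among the remaining members, Rpl35, Rps15 and Rpl27 fell in TF groups 2 and 3, and Rps3 and Rpl8 in TF group 3. On the probe sets used, these falls were 0.24 or less on the log2 scale. Rpl35, whose start carries the longest pyrimidine run printed above, had log2 signals of 13.13, 13.12 and 13.14 in TF group 2, 13.08, 13.11 and 13.19 in TF group 3, and 13.32, 13.29 and 13.43 in the negative control. It fell by 0.22 in both on the log2 scale (SE 0.06, adjusted p = 0.00879 and 0.00918). Rps15, a small subunit protein, had -0.15 in TF group 2 and -0.24 in TF group 3 (adjusted p = 0.0409 and 0.0046), and Rpl27 had -0.15 and -0.17 (adjusted p = 0.0445 and 0.0257). The other single-symbol probe set of Rps15, with a mean log2 signal of 12.55, gave -0.01 and -0.11, neither passing. Those of Rpl27, with means of 11.64 and 11.83, were called lower in every TF group. The first gave -0.24, -0.23 and -0.39 in TF groups 1, 2 and 3, the second -0.21, -0.23 and -0.32. Rps3, a protein of the messenger RNA entry site with a further role in DNA repair, had -0.10 in TF group 2 (adjusted p = 0.193) and -0.20 in TF group 3 (adjusted p = 0.0203), and Rpl8 had -0.14 (adjusted p = 0.126) and -0.19 (adjusted p = 0.0399). Of these, on the probe sets used, Rpl35 in both groups and Rps15 in TF group 3 kept their calls with any one array left out. Rps3 lost its call without replicate 3 of the negative control (-0.15) or replicate 1 of TF group 3 (-0.18). Rpl27 in TF group 3 lost its call without replicate 2 (-0.16) or 3 (-0.16) of the negative control or replicate 1 of TF group 3 (-0.15). In TF group 2, Rpl27 and Rps15 lost theirs in 9 and 10 of the 12 omissions, and Rpl8 in TF group 3 lost its call in 9. Over all 12 omissions these changes were -0.18 to -0.12 for Rpl27, -0.19 to -0.12 for Rps15 and -0.23 to -0.13 for Rpl8.

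The TF groups were also compared with each other, since each adds factors to the one before. In TF group 2 against TF group 1 no member was called in either direction, where 4.45% of all genes were called higher and 5.04% lower. An unadjusted p under 0.05 in limma was found for 17 of the 48, beside 2782 of all 12393 genes. In TF group 3 against TF group 2 no member was called, where 5.79% were called higher and 5.81% lower. Here 1 of the 48 had an unadjusted p under 0.05, beside 3049 of all 12393 genes. The median log2 changes of the members were -0.12 and -0.03, beside -0.01 and -0.01 over all genes, and the first was 0.04 with the poly-A scaling, where that of all genes was 0.15. In TF group 3 against TF group 1 no member was called higher and 7 were called lower, where 7.96% and 8.97% of all genes were called, and the median was -0.16, beside -0.02 over all genes, or -0.03 beside -0.02 after quantile normalization. All 36 members with a mean of 12 or more had a negative change in that comparison, with a median of -0.17 and the lowest at -0.26. Among the 363 other genes at that level, 218 had a negative change, with a median of -0.05. The comparisons share arrays and a common scale on each array, so the genes are not independent of each other here.

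In TF group 3 against TF group 1 the 7 genes called lower were Rpl10a (-0.25, adjusted p = 0.0141), Rps28 (-0.23, adjusted p = 0.0277), Rps15 (-0.21, adjusted p = 0.0239), Rps4x (-0.20, adjusted p = 0.0327), Rpl11 (-0.20, adjusted p = 0.0402), Rpl7 (-0.18, adjusted p = 0.0304) and Rps3a1 (-0.17, adjusted p = 0.0429). Rpl10a, a large subunit protein close to the exit site of transfer RNA, had log2 signals of 13.10, 13.12 and 13.14 in TF group 3, against 13.44, 13.29 and 13.37 in TF group 1, which did not overlap. This count rested on single arrays and on the scale. It was 0 without replicate 1 of TF group 1 or of TF group 3, 1 without replicate 3 of TF group 1 or replicate 2 or 3 of TF group 3, 2 without TF group 1 replicate 2, 4 without TF group 2 replicate 2, and between 5 and 10 without any other array. It was also 0 with arrays centred on their medians, with quantile normalization, with the poly-A scaling and when only these 2 groups entered the fit.

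A total of 102 probe sets carried a ribosomal protein symbol among others, and 31 of them named a member, the 5 of Rpl14 included. The other 71 named only genes left out of the 48. In TF group 1, 5 of these 71 were called higher and 9 lower (7.04% and 12.7%), beside 22.9% and 17.1% of 22424 other probe sets. In TF group 2, 1 was called higher and 12 lower (1.41% and 16.9%), beside 22.5% and 18.03%, and in TF group 3, 0 were called higher and 17 lower (23.9% lower), beside 22.5% and 17.4%. Their median log2 changes were 0.06, -0.07 and -0.12. Among the 52 of them with a mean of 12 or more, 2, 6 and 11 were called lower (3.85%, 11.5% and 21.2%), shares below the 23.4%, 29.1% and 27.0% of other probe sets at that level, and none changed by more than 1.5-fold. Counting those of the 102 whose other symbols are all pseudogenes or predicted genes widened the set from 48 to 73 genes, in which Rpl12, Rpl14 and Rps25 took the brighter probe sets. In that wider set 0, 0 and 1 genes fell by more than 1.5-fold in TF groups 1, 2 and 3. This widening was chosen after the data were seen.

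Genes that build and use the ribosome were set beside its proteins, and many of them were called lower. Over all genes, 18.6%, 19.9% and 19.7% were called lower and 26.1%, 25.7% and 25.5% higher in TF groups 1, 2 and 3. Of 74 genes for mitochondrial ribosomal proteins, which translate the messages of the mitochondrial genome, 44, 36 and 39 were called lower and 6, 9 and 5 higher in TF groups 1, 2 and 3, with medians of -0.30, -0.22 and -0.23. Mrpl12 and Mrps6 had log2 changes of -0.96 and -0.97 in TF group 1. Of 40 genes of ribosome biogenesis, the nucleolar machinery that makes and processes rRNA, 31, 32 and 32 were called lower and 0, 1 and 1 higher, with medians of -0.58, -0.56 and -0.65. Fbl, the methyltransferase fibrillarin of box C/D particles, fell by 1.38, 1.55 and 1.45 on the log2 scale in TF groups 1, 2 and 3, and its partner Nop56 by 1.57 and 1.53 in TF groups 1 and 2. Both lists kept negative medians under the other 3 scalings. The cytosolic ribosomal proteins had medians of 0.06, -0.07 and -0.08 in the same comparisons; whether the lists differ from each other was not tested.

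**Figure D5:**
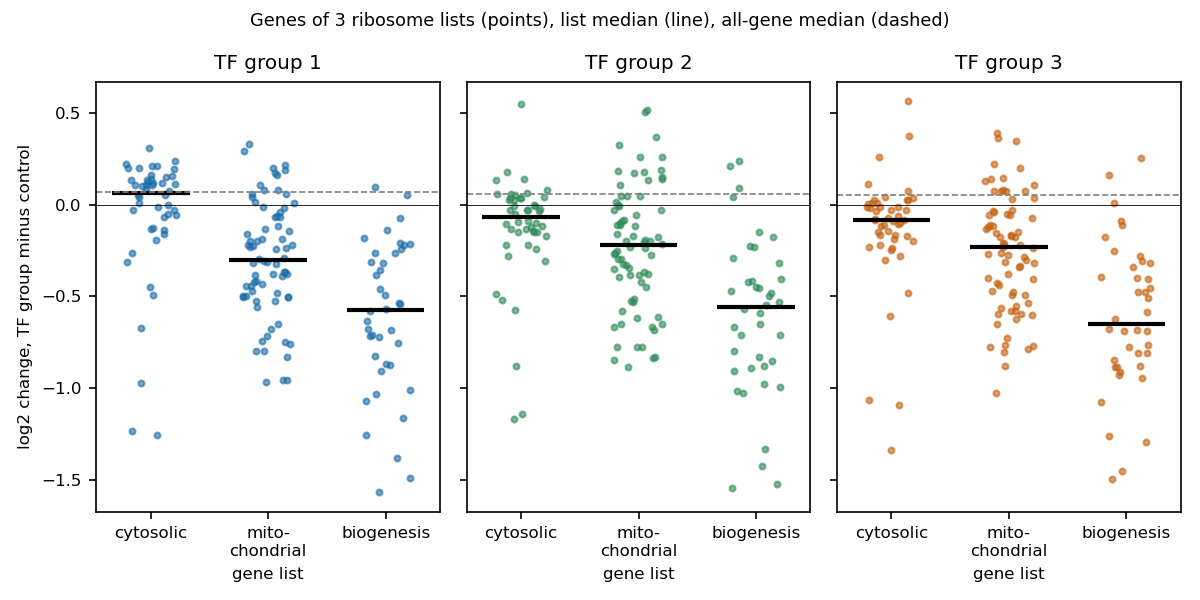
Log2 change of each TF group minus the negative control (vertical axis) for the 48 cytosolic ribosomal protein genes, 74 mitochondrial ribosomal protein genes and 40 ribosome biogenesis genes (horizontal axis, points are genes, lines are list medians, the dashed line is the median of all genes). The medians of the biogenesis genes lie between -0.56 and -0.65, those of the mitochondrial genes between -0.22 and -0.30, and those of the cytosolic genes between -0.08 and 0.06.

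Other genes known or listed for TOP messages, with the elongation factors, were called in both directions in TF group 1. In TF groups 2 and 3 their calls were mostly lower. Of 13 measured, 4, 0 and 1 were called higher and 6, 7 and 7 lower, with medians of -0.07, -0.19 and -0.26. Over all genes, 26.1%, 25.7% and 25.5% were called higher and 18.6%, 19.9% and 19.7% lower. In TF group 1, 0 of the 13 were called higher with arrays centred on their medians and 1 with quantile normalization. Eef2, the translocation factor of elongation, was higher by 0.34 and 0.23 in TF groups 1 and 3 (adjusted p = 0.00632 and 0.0458), but lower, at -0.56 and -0.57, with the poly-A scaling and not called with array medians. Naca, a chaperone of nascent chains, fell by 0.21, 0.33 and 0.32 in TF groups 1, 2 and 3. Of 35 initiation factors, 4, 4 and 4 were called higher and 13, 16 and 14 lower, with medians of -0.07, -0.14 and -0.11. None of these medians changed sign with scaling.

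Of 20 regulators of ribosomal protein synthesis, 7, 8 and 6 were called higher and 6, 5 and 4 lower, beside 26.1%, 25.7% and 25.5% higher and 18.6%, 19.9% and 19.7% lower over all genes. In TF group 3 these counts are near the shares over all genes, and the genes named next are values of single genes rather than a result of the list. Myc, a transcription factor that drives ribosome production, fell by 0.92, 0.90 and 0.56 in TF groups 1, 2 and 3, and Larp1, the repressor of TOP messages, fell by 0.59, 0.63 and 0.41, under all 4 scalings. Mxd4, a Myc antagonist, rose by 1.09, 0.90 and 0.90, and Ddit4, an inhibitor of mTOR, by 0.91, 0.68 and 0.81, neither of which was called with the poly-A scaling. Mycn rose by 0.87 and 1.26 in TF groups 2 and 3, also not called with that scaling, and had 0.01 in TF group 1. These lists were chosen by known function, and no relation between a regulator and the ribosomal proteins was tested.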

How the data were processed

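The study measured RNA of 12 MEF cultures on Affymetrix Mouse Genome 430A 2.0 arrays, 3 in each of 4 groups, which the labels call biological replicates. The authors deposited one table with a linear intensity (signal) per probe set and array. The labels name RMA and Partek, without versions, but RMA gives log2 values, so how the linear signal was made is not given in the sources used here. The mean of each array after trimming 2% at either end was 500.2, so the arrays had been scaled to a common level, and no further scaling was applied.

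Of 22690 probe sets, 64 controls were left out, and of the others 20380 carried one gene symbol, 691 several and 1555 none in the platform annotation. For each of 12393 symbols the single-symbol probe set with the highest mean log2 signal was kept. All 48 members were matched to RefSeq by gene identifier. Log2 signals of all arrays were fitted together in limma 3.58.1 (R 4.3.3) with lmFit and eBayes, and p-values were adjusted by Benjamini-Hochberg over all genes for each of 6 comparisons. A gene was called at an adjusted p under 0.05. Adjusted p-values of other probe sets come from a fit over all probe sets. The step was tested on simulated data. With 3 arrays a group, their number limits the precision.

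The genes named were up to 5 members in each direction with the greatest change, among called members whose groups did not overlap, together with members named for a known role, the paralogues and their parents, and the 5 genes whose probe sets differed most. Rps3, Rpl8, Rpl27, Rpl35, Rps15, Rps9 and Rps4x in other comparisons, the remaining genes called higher in TF group 1 and the named genes of other lists were chosen after their values were seen. The members and all gene lists were chosen with earlier results of these data known. The alternatives were centring each array on its median, quantile normalization, scaling to the poly-A spikes, an offset of 50, a filter on genes with a mean log2 signal under 5, the mean of all probe sets of a gene, leaving out probe sets ending in x_at or s_at, adjustment over all probe sets, an intensity trend, fitting only the arrays of the groups compared, a replicate block, the methods' linear model with unadjusted p, and leaving out each array. The wider set of 73 genes was added after the data were seen.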

Additional observations from a re-analysis of the deposited data

Results flagged for a closer look

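The 3 control probe sets for 18S rRNA, the RNA of the small ribosomal subunit, lay outside the comparisons of genes, and on all of them the 9 TF arrays were above the 3 control arrays. The probe set at the 3′ end averaged 11.46 on the TF arrays and 10.34 on the negative control arrays on the log2 scale, a difference of 1.12. The probe set at the 5′ end averaged 13.14 on the TF arrays and 12.34 on the negative control arrays, a difference of 0.80. The middle probe set averaged 12.36 on the TF arrays and 10.72 on the negative control arrays, a difference of 1.63. The part of this difference in the values of the ribosomal protein genes was not tested.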

How the results depend on the processing

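The lower calls of Rps25, Rpl12, Rpl14, Rpl37 and Rpl7l1 were kept in every TF group under each scaling and filter run on their own probe sets and in all omissions of one array, and Rpl35 in TF group 2 was kept likewise. No call in the higher direction was kept under all of them. The 3 arrays in each group limit the precision of every count. Members with a mean log2 signal of 12 or more lay near the highest signal of the arrays, and whether this narrowed their changes was not tested.

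With the poly-A scaling the member medians were -0.83, -0.81 and -0.88 in TF groups 1, 2 and 3 against the negative control, 0.042 in TF group 2 against TF group 1, -0.053 in TF group 3 against TF group 1 and -0.085 in TF group 3 against TF group 2. No member was then called higher, 47, 44 and 45 were lower, and 0 were lower in TF group 3 against TF group 1. Centred on array medians, the medians were -0.066, -0.17 and -0.20, with 0, 1 and 1 called higher, 13 and 20 lower in TF groups 1 and 2, and 0 lower in TF group 3 against TF group 1. After quantile normalization the median in TF group 1 was -0.024, with 4 higher and 10 lower, and the medians against TF group 1 were -0.022 in TF group 2 and -0.025 in TF group 3, with 0 lower in the last.

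With the intensity trend, 14 were higher and 9 lower in TF group 1, 2 higher and 6 lower in TF group 2 against TF group 1, 2 higher and 22 lower in TF group 3 against TF group 1, and 1 higher in TF group 3 against TF group 2. The mean of all probe sets gave a median of 0.011 and 11 lower in TF group 1, 1 higher in TF group 3, 1 lower in TF group 2 against TF group 1, 1 higher and 3 lower in TF group 3 against TF group 1, and 1 higher and 1 lower in TF group 3 against TF group 2. The methods' linear model with unadjusted p gave 14 higher and 10 lower in TF group 1, 17 lower in TF group 2, 2 higher and 22 lower in TF group 2 against TF group 1, 4 higher and 32 lower in TF group 3 against TF group 1, and 1 higher and 2 lower in TF group 3 against TF group 2. An offset of 50 and the filter on dim genes each gave 1 lower in TF group 2 against TF group 1 and 1 higher in TF group 3 against TF group 1. Fitted on the arrays of the groups compared, 2 and 1 were higher in TF groups 1 and 2, 9 lower in TF group 3, and 0 lower in TF group 3 against TF group 1. Without x_at and s_at probe sets the median in TF group 1 was 0.0086 with 4 higher, and 1 was higher in TF group 3 against TF group 2. The wider set gave 1 higher in TF group 3 and 16 lower in TF group 3 against TF group 1. The cause of these changes was not tested.

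Same-numbered arrays did not deviate together (correlations of -0.024 to 0.054 over 18 pairs), so the numbers were not taken as pairs. With the replicate block, 2 members were lower in TF group 3 against TF group 1. Leaving out one array gave 2 to 8 higher and a median of 0.018 to 0.091 in TF group 1, 1 to 3 higher in TF group 2, 1 to 2 higher in TF group 3, 0 to 10 lower in TF group 3 against TF group 1, and 0 to 1 higher in each comparison between TF groups.

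Signs turned under the poly-A scaling. In TF group 1 the changes were -0.70 for Rpl13a, -0.81 for Rpl22l1, -0.68 for Rpl27a, -0.75 for Rpl38, -0.78 for Rpl39l, -0.66 for Rplp0, -0.78 for Rplp2, -0.70 for Rps14, -0.79 for Rps19, -0.69 for Rps20, -0.69 for Rps27l, -0.59 for Rps28, -0.70 for Rps29, -0.84 for Rps4x and -0.74 for Rps7. In TF group 2 they were -0.70 for Rpl38, -0.19 for Rpl39l, -0.66 for Rplp0, -0.71 for Rplp2 and -0.56 for Rps27l. In TF group 3 they were -0.53 for Rpl27a, -0.78 for Rpl38, -0.77 for Rpl39, -0.23 for Rpl39l, -0.79 for Rplp0, -0.68 for Rps27l and -0.77 for Rps4l. With the mean of all probe sets, Rpl22 had 0.42 and 0.21 in TF groups 1 and 2 and Rpl27a had -0.064 in TF group 3.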
